A study of Mus musculus with 18 samples.

Results

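The nuclear genome encodes most subunits of the 5 complexes of oxidative phosphorylation, and 84 such genes are described here in mouse left ventricle. They were chosen by name from the deposited count table: symbols beginning with Nduf, Uqcr, Cox4 to Cox8 or Atp5, together with Cyc1 and the 4 genes Sdha to Sdhd. Of 100 matching names, 7 pseudogenes with -ps in the name and 7 assembly factors of the Ndufaf series were left out. Cox7b2, with at most 5 counts in a library, and Cox8c, with 0 counts in all libraries, did not reach 10 counts in 6 libraries. The 84 genes left, of 48709 in the table, all entered the tests. By role, 36 belong to complex I, 4 to complex II, 9 to complex III, 18 to complex IV and 15 to complex V. Among them Cox7a2l is a supercomplex factor and no subunit, and Atp5s and Atp5sl lie outside the complexes, which leaves 81 subunits. Ndufa4 and Ndufa4l2 carry a complex I name and were counted with complex IV, where the Ndufa4 protein is placed.

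The animals were male wild-type C57BL/6J mice aged 12 weeks, and left ventricles were taken for sequencing of polyadenylated RNA after 21 days of treatment. The 6 control libraries come from mice with saline in the osmotic pump and saline injections. The 6 isoproterenol libraries come from mice infused with isoproterenol, an agonist of β-adrenergic receptors, at 30 mg/kg/day. The 6 libraries of isoproterenol and minocycline come from mice that also received the tetracycline antibiotic minocycline daily at 50 mg/kg by intraperitoneal injection. A group given minocycline without isoproterenol was not analysed here.

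Complex I oxidises NADH and complex II oxidises succinate, and both pass electrons to ubiquinone. Complex III hands them on to cytochrome c and complex IV to oxygen, while complexes I, III and IV pump protons out of the matrix. Complex V lets the protons back and makes ATP. In adult ventricle, where ATP comes mostly from mitochondria, these genes are among the most abundant nuclear transcripts, and several subunits of complex IV have a heart and muscle isoform beside a form found in most tissues.

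Libraries held 14203041 to 22688664 counts. The 84 genes took 3.26 ± 0.107% of the counts in control, 3.31 ± 0.0747% with isoproterenol and 3.25 ± 0.157% with isoproterenol and minocycline (SD, n = 6 libraries each). The 13 mitochondrially encoded protein genes took 45.4 ± 1.23%, 43.2 ± 2.14% and 44.6 ± 2.06%. Levels are given as CPM, the usual share of the library, over library sizes scaled by the trimmed mean of M values (TMM), which centres the fold changes of all genes near 0. Scaling by total counts instead moved the median log2 fold change of all 13281 genes tested from 0.0011 to 0.14 for isoproterenol versus control, so directions for the family are given relative to all genes. Within the group given both drugs, the counts of libraries 4 and 6 differed from those of the other 4 by 17.7 to 35.4 chi-square per degree of freedom, more than from each other. They had the lowest medians of the group over the cardiomyocyte markers, at -0.36 and -0.42 (log2 deviation from the control mean), against -0.23 to -0.065 in the other 4.

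Motifs of factors known for respiratory genes were searched in RefSeq promoters, defined as 250 bases before to 50 bases after a start site on GRCm38.p6, which matched 66 of the 84 genes. The motifs were GCGCA, any base and GCGC in a row for NRF1, CCGGAAG for GABP, TNAAGGTCA for estrogen-related receptors (ERR) and AANATGGCG for YY1, read on both strands, and in the stretches shown no match overlapped one of another motif. The following stretches before the start site, which no annotated exon overlaps, show where matches lie, in capitals and 5′ to 3′ on the gene's strand. Those of Atp5h and Uqcrh belong to genes that fell with isoproterenol, and those of Cox6a1 and Atp5g3 to genes that did not pass the test. Atp5h holds an NRF1 match that starts 141 bases before the start site, and Uqcrh a GABP match at 10 bases. Cox6a1 holds NRF1 matches at 162 bases, which reads on both strands, and at 117 bases, and Atp5g3 an ERR match at 52 bases. Outside the stretches shown, the promoters of Atp5h and Cox6a1 also hold 1 GABP match each, and that of Atp5g3 1 NRF1 match.
Atp5h, chr11:115419963-115420127, minus strand: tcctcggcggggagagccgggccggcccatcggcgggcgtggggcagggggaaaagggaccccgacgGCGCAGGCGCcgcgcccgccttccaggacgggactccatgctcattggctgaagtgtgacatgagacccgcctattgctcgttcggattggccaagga
Uqcrh, chr4:116075072-116075268, minus strand: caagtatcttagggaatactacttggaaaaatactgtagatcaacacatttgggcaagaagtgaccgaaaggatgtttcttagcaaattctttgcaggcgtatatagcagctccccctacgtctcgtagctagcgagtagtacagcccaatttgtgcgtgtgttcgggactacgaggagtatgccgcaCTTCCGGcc
Cox6a1, chr5:115348982-115349129, minus strand: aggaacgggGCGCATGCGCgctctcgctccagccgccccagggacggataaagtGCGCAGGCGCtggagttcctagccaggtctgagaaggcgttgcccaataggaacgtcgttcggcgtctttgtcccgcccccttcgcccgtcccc
Atp5g3, chr2:73911327-73911576, minus strand: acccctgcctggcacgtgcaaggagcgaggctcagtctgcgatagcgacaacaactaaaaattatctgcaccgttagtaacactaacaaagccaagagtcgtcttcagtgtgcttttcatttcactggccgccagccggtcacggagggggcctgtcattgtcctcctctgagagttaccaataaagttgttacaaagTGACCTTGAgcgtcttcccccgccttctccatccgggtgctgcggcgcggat

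An NRF1 match was in the promoter of 25.8% of the 66 genes, of 11.2% of all tested genes with a promoter and of 5.19% of all genes of the promoter table. The same shares were 24.2%, 19.2% and 9.93% for GABP, 15.2%, 5.83% and 2.76% for YY1, and 4.55%, 0.885% and 1.43% for ERR. Among the genes that fell with isoproterenol, 4 of 18 (22.2%) held an NRF1 match, and 13 of 48 (27.1%) of those that did not pass the test did. For GABP these were 4 of 18 (22.2%) and 12 of 48 (25.0%). For YY1 they were 2 of 18 (11.1%) and 8 of 48 (16.7%), and for ERR 0 of 18 and 3 of 48 (6.25%). The motifs were chosen with the fold changes known, and a match is a description of the letters in this window.

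In control ventricle the level per length, given as the deposited TPM (transcript abundance corrected for length), was highest for Cox6a2, the heart and muscle isoform of cytochrome c oxidase subunit VIa. It stood at 2145 ± 92.4 TPM (SD, n = 6), from 2028 to 2270 in single libraries. Next came Atp5a1 at 1459 ± 86.7 TPM and Atp5b at 1222 ± 72.9 TPM, the α and β subunits of the catalytic head of ATP synthase, with Atp5l, a membrane subunit, at 1362 ± 91.5 TPM between them. Atp5l overlapped both others in range, while every library of Atp5a1 lay above those of Atp5b. Cox6a2 lay above every library of these 3 genes.

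The complexes differed in level. The median control level was 216 TPM over the 36 subunits of complex I, 341 TPM over the 4 of complex II, 489 TPM over the 9 of complex III, 469 TPM over 17 of complex IV and 441 TPM over the 15 of complex V. Complexes II and III were even, with a highest to lowest ratio of 3.07 and 2.22, led by Sdha, the flavoprotein of succinate dehydrogenase, at 407 TPM and Cyc1, cytochrome c1, at 644 TPM. Complex I ran from Ndufb9 at 671 TPM to Ndufb2 at 19.2 TPM, a ratio of 34.9. Complex IV held the widest spread, because it lists the rare isoforms too: Ndufa4l2 was at 15.9 ± 1.61 TPM, Cox4i2 at 11.2 ± 1.21 TPM and the testis isoform Cox6b2 at 1.601 ± 0.350 TPM. TPM depends on the gene models used, and the annotation behind it is not known here.

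**Figure D1:**
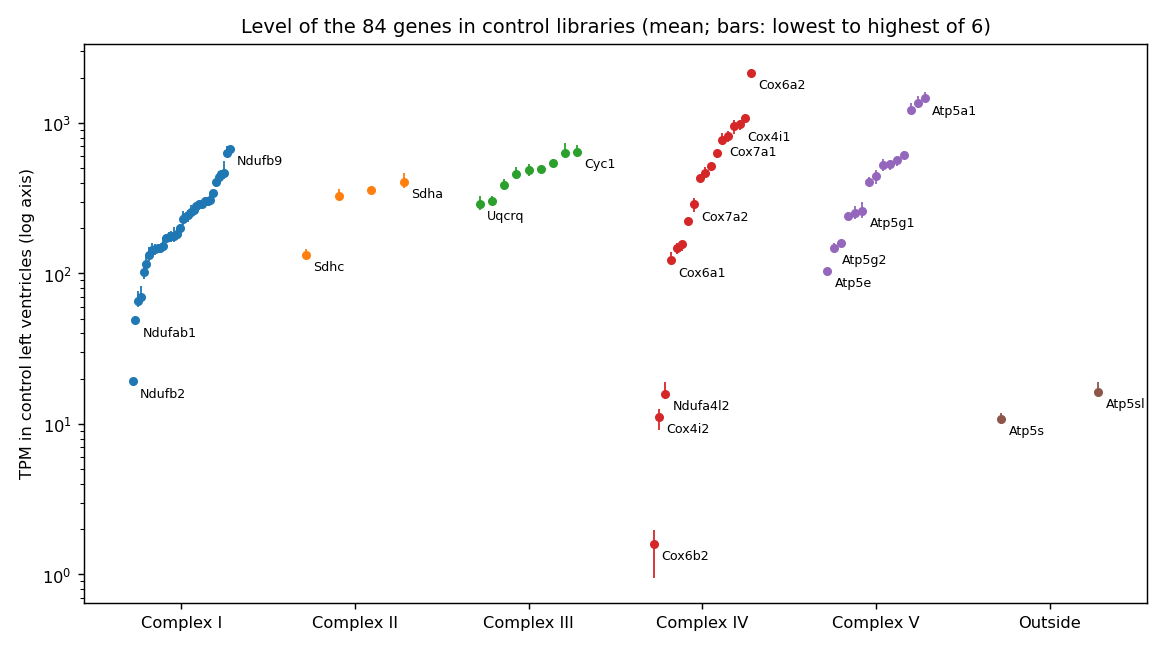
Level of each of the 84 genes in control ventricle, in TPM on a log axis, by complex. Each point is the mean of 6 libraries and each bar runs from the lowest to the highest library. Cox6a2 stands highest at 2145 TPM and Cox6b2 lowest at 1.601 TPM.

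Isoproterenol was compared with control to see which subunit genes moved. Of the 84 genes, 20 fell and 0 rose at an adjusted p under 0.05, against 5.62% of all tested genes that fell and 6.94% that rose. At an unadjusted p under 0.05, 41 of the 84 passed, 39 of them lower, against 27.6% of all genes that passed in either direction. In 6 genes all isoproterenol libraries lay below all control libraries, against 3.25% of all genes, and in 0 genes above, against 3.66%. The median log2 fold change of the 84 genes was -0.11 and 73 lay below 0 (49.8% of all genes did), whereas scaling by total counts gave a median of 0.033 with 32 below 0, 1 gene lower and 6 higher, against 1.83% and 20.2% of all genes. Relative to the median of all genes the family stood at -0.11, with 74 of 84 genes below that median, a difference that a change of scaling leaves nearly as it is by construction. Under total counts the single fall was Cox6b2 and the rises were Cox4i2, Ndufa1, Ndufa4l2, Uqcr10, Uqcrfs1 and Uqcrq, and calls over all genes shifted from 44.8% lower to 8.29% lower. The 20 genes that fell under TMM all kept a log2 fold change below 0 under total counts, from -1.15 to -0.0099. The falls were small: apart from Cox6b2, none of the 20 fell by more than 0.32 on the log2 scale.

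The libraries overlapped as a family. The median deviation of the 84 genes from the control mean ran from -0.074 to 0.095 (log2) over the control libraries and from -0.21 to -0.0027 over the isoproterenol libraries, with Isoproterenol 5 lowest and Isoproterenol 3 highest. The count of falls changed with the library left out. It was 10 without Control 1, 11 without Control 3, 9 without Control 4, 11 without Isoproterenol 2, 10 without Isoproterenol 5 and 13 without Isoproterenol 4 or Isoproterenol 6, and 14 to 21 without each of the other libraries. The share of all genes called, lower or higher, was 12.6% with all libraries. It was 11.4%, 9.45% and 8.09% without Control 1, Control 3 and Control 4. Without Isoproterenol 2, 4, 5 and 6 it was 10.5%, 11.6%, 8.96% and 10.2%. Without Isoproterenol 3 it was 9.27%, and 21 of the 84 genes fell. There were 4 libraries, Control 5, Control 6, Isoproterenol 5 and Isoproterenol and minocycline 2, with over 80 CPM of the atrial light chain Myl7, and without them 6 of the 20 falls remained, against 2.31% of all genes that fell, while the median was -0.11 with 74 of 84 genes below 0.

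Complex I is built from an N module that takes electrons from NADH, a Q module that reduces ubiquinone and a membrane arm that pumps protons. With isoproterenol 9 of its 36 genes fell and 0 rose. The N module held 4 of these among 10 genes, all 10 with a fold change below 0 and a median of -0.16. The Q module held 0 among 6 (median -0.087, 1 at an unadjusted p under 0.05), and the membrane arm 5 among 20 (median -0.11). Under total counts 0 of the 36 fell, Ndufa1 rose and the median of complex I was 0.024. Whether the modules differed from each other was not tested.

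Ndufv1 (ENSMUSG00000037916, chr19:4007497-4012806) encodes the flavoprotein subunit that binds NADH. It ran from 426 over a median of 450 to 467 CPM in control and from 388 over 396 to 416 CPM with isoproterenol. The groups did not overlap, and Ndufv1 fell by 0.17 ± 0.046 on the log2 scale (SE, adjusted p = 0.0217). Ndufs4 (chr13:114287795-114388094), an accessory subunit of the same module, ran from 131 over 144 to 153 CPM in control and from 113 over 122 to 130 CPM with isoproterenol. It too had separate groups and fell by 0.21 ± 0.053 (adjusted p = 0.0134).

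Ndufa3 (ENSMUSG00000035674, chr7:3617373-3620327), a small subunit of the membrane arm, had the largest fall of complex I. Its control libraries held 186 to 231 CPM (median 219) and its isoproterenol libraries 152 to 205 CPM (median 172), so that the groups overlapped. The change was -0.30 ± 0.074 (adjusted p = 0.0115). Ndufa13, the membrane arm subunit also known as GRIM-19, went from a median of 249 to 209 CPM (-0.20, adjusted p = 0.0138), and Ndufb5, also of the membrane arm, from 242 to 214 CPM (-0.19, adjusted p = 0.0193). Ndufa7 and Ndufa12, accessory subunits placed with the N module here, changed by -0.22 and -0.20, and Ndufb8 and Ndufb10 of the membrane arm by -0.19 and -0.18, all with overlapping groups. The neighbouring gene Mrpl47 shares 216 bases with Ndufb5 and held 7.88% as many counts. Ndufs1, the large iron-sulfur subunit of the N module, did not pass the test at -0.24 (adjusted p = 0.0754), and an overlapping gene, Eef1b2, holds 20.7% as many counts.

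Complex II, which is also succinate dehydrogenase of the citric acid cycle, had all 4 genes below 0 (median -0.13; 0.015 under total counts, with 2 below 0). Only its iron-sulfur subunit Sdhb (ENSMUSG00000009863, chr4:140961203-140979193) fell. Sdhb ran from 529 over 557 to 595 CPM in control and from 464 over 503 to 532 CPM with isoproterenol, and the lowest control library lay just inside the isoproterenol range. It fell by 0.15 ± 0.048 (adjusted p = 0.0395), a call kept in 3 of 12 fits that each left out 1 library. Sdha changed more, from a median of 1098 to 904 CPM, but its wider spread left it at -0.28 ± 0.098 (adjusted p = 0.0628). The membrane anchors Sdhc and Sdhd changed by -0.10 and -0.065 without passing the test.

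In complex III 2 of 9 genes fell. Uqcrc1 (ENSMUSG00000025651, chr9:108936633-108949623), a core protein of the matrix side, ran from 839 over 860 to 905 CPM in control and from 729 over 770 to 827 CPM with isoproterenol, with no overlap. It fell by 0.17 ± 0.049 (adjusted p = 0.0284), a call kept in 6 of 12 fits that each left out 1 library. Uqcrh, the hinge protein that helps cytochrome c1 meet cytochrome c, fell by 0.18 ± 0.059 (adjusted p = 0.0445) with 5 of 6 isoproterenol libraries under the control mean, a call kept in 1 of those 12 fits. The catalytic subunits Cyc1 and Uqcrfs1, the Rieske iron-sulfur protein, stood at -0.0093 ± 0.059 and 0.028 ± 0.059. The median over complex III was -0.070, and 0.076 under total counts with Uqcr10, Uqcrfs1 and Uqcrq higher.

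In complex IV 4 of 18 genes fell. It had the widest range of fold changes, from -1.29 in Cox6b2 to 0.40 in Ndufa4l2, both of low level. Apart from these 2 and Cox4i2, also of low level, its values ran from -0.32 (Cox6a2) to 0.028 (Cox7a1). Those of complex I ran from -0.30 to 0.085. Cox6a2 (ENSMUSG00000030785, chr7:128205435-128206387) ran from 956 over 1014 to 1093 CPM in control and from 723 over 822 to 871 CPM with isoproterenol. Every isoproterenol library lay below every control library, and Cox6a2 fell by 0.32 ± 0.056 (adjusted p = 0.00076). That call was kept in all 12 fits that left out 1 library and lost under total counts, where the change was -0.17. Cox6b1, the common form of subunit VIb near the cytochrome c site, ran from 502 over 524 to 576 CPM in control and from 417 over 455 to 511 CPM with isoproterenol, and fell by 0.21 ± 0.054 (adjusted p = 0.0151).

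Ndufa4 fell by 0.18 ± 0.054 (adjusted p = 0.0356; median 501 to 440 CPM), a call kept in 3 of 12 fits without 1 library. Cox6b2 (chr7:4751792-4753094), the testis isoform of subunit VIb, is nearly silent here, with 0.760 to 1.54 CPM in control and 0.250 to 0.887 CPM with isoproterenol. It fell by 1.29 ± 0.27 (adjusted p = 0.00358) and stayed lower under total counts. The highest values stood on 2 isoforms known for their response to low oxygen, neither of which passed the test. Ndufa4l2 went from 9.20 to 12.9 CPM (median 10.5) in control to 11.6 to 16.7 CPM (median 13.9) with isoproterenol, a change of 0.40 ± 0.14 (adjusted p = 0.0547), and the overlapping gene Shmt2 holds 246% as many counts. Cox4i2 went from a median of 6.06 to 7.88 CPM, a change of 0.34 ± 0.12 (adjusted p = 0.0727). Cox5a, a subunit on the matrix side, was at a median of 393 CPM in control and 390 CPM with isoproterenol (0.00081 ± 0.052). Under total counts the median of complex IV turned from -0.096 to 0.046.

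In complex V the falls lay in the rotor and the peripheral stalk. Atp5c1 (ENSMUSG00000025781, chr2:10056016-10080510) encodes the γ subunit, the shaft that turns inside the catalytic head. It ran from 769 over 812 to 877 CPM in control and from 679 over 699 to 725 CPM with isoproterenol, with no overlap, and fell by 0.21 ± 0.047 (adjusted p = 0.00522). Atp5h (ENSMUSG00000034566, chr11:115415689-115419962) encodes subunit d of the peripheral stalk, which holds the head still. It ran from 534 over 576 to 618 CPM in control and from 449 over 489 to 532 CPM with isoproterenol, again with no overlap, and fell by 0.26 ± 0.058 (adjusted p = 0.00552). Atp5o, the stalk protein OSCP, fell by 0.16 ± 0.046 (adjusted p = 0.0316; median 838 to 749 CPM), a call kept in 4 of 12 fits without 1 library. The catalytic β and α subunits Atp5b and Atp5a1 changed by -0.13 ± 0.045 (adjusted p = 0.0662) and -0.079 ± 0.068 (adjusted p = 0.486). The c-ring genes Atp5g1, Atp5g2 and Atp5g3 ranged from -0.12 to -0.086, and 0 of 3 passed (1 at an unadjusted p under 0.05). The median of complex V was -0.11, and 0.034 under total counts with 0 called. Outside the complexes, Atp5sl, an assembly protein of complex I by its other name Dmac2, fell by 0.19 ± 0.064 (adjusted p = 0.0478), a call kept in 2 of those 12 fits.

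**Figure D2:**
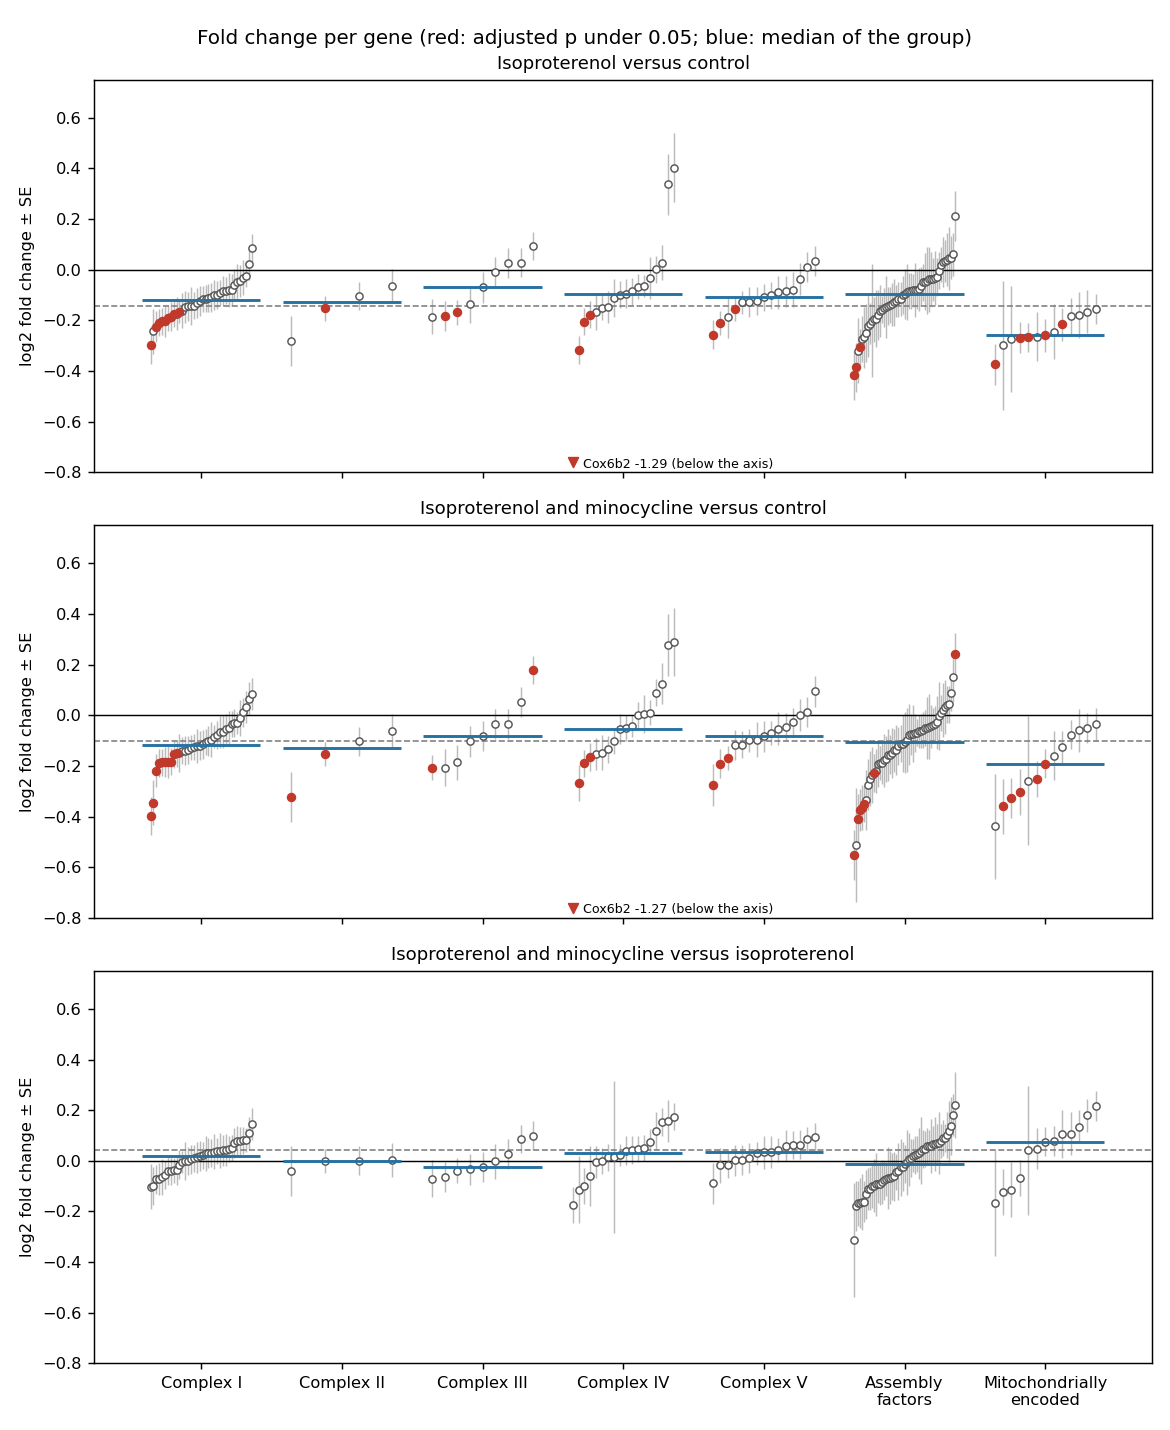
Log2 fold change ± SE of each gene by complex, beside assembly factors and mitochondrially encoded subunits, in the 3 comparisons. Red points passed an adjusted p under 0.05, blue lines are medians, the solid line is 0 under TMM and the grey dashed line is where 0 lies under total counts, at which the medians of complexes III, IV and V turn sign in both comparisons with control, and those of I and II with isoproterenol alone. Cox6b2 (-1.29 and -1.27) lies below the axis and is marked by an arrowhead without a bar.

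**Figure D3:**
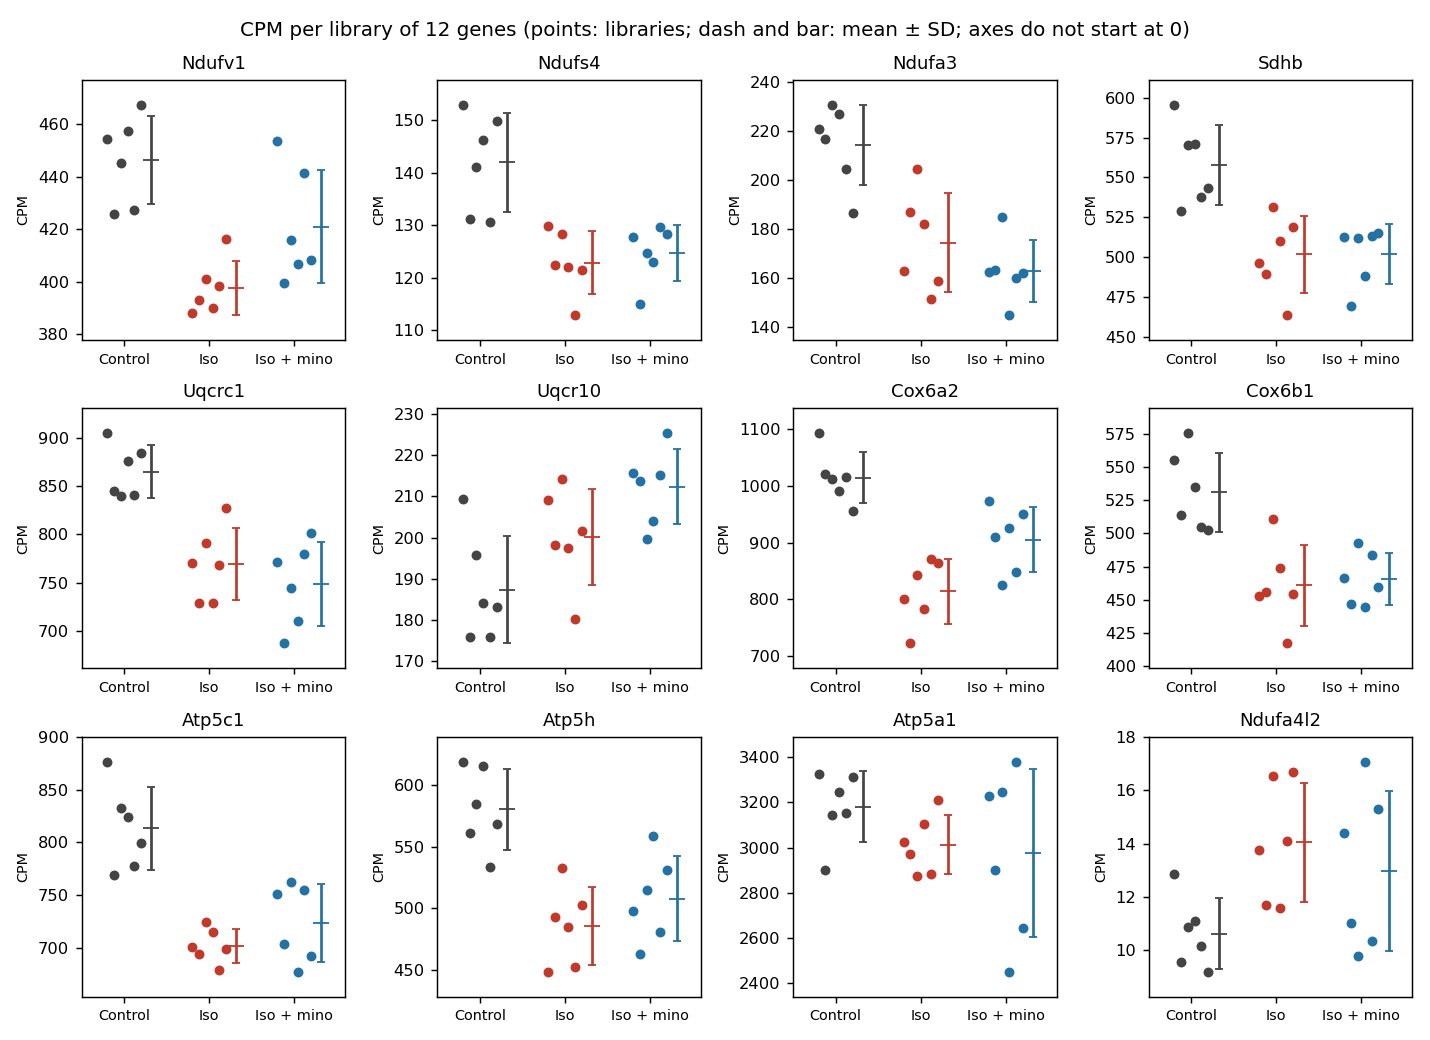
CPM over TMM-scaled library sizes of 12 genes in each of the 18 libraries, with the group mean ± SD (n = 6). The axes do not start at 0. Ndufv1, Ndufs4, Uqcrc1, Cox6a2, Atp5c1 and Atp5h show isoproterenol libraries all below the control libraries, while the treated means of Uqcr10 and Ndufa4l2 lie above control.

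Assembly factors, which build the complexes without being part of them, were set beside the subunits. Of 51 tested, 3 fell with isoproterenol (5.88%, against 23.5% of the 81 subunits and 5.62% of all genes) and 0 rose, although 10 had an unadjusted p under 0.05 and a lower level. The medians were alike at -0.096 and -0.11. The assembly factors are expressed at lower levels, for example 363 ± 17.4 CPM summed over the 14 of complex I in control against 34578 CPM over the 84 genes. These sets differ in size and in the complexes they cover, so the sums do not give the difference per gene. The part of level in the share that passes was not tested. Uqcc1, which helps cytochrome b of complex III, went from 118 ± 8.70 to 88.1 ± 9.68 CPM (-0.42 ± 0.098, adjusted p = 0.00768). Acad9, a dehydrogenase that doubles as a complex I factor, went from 30.2 to 23.1 CPM (-0.39, adjusted p = 0.0112). Foxred1, a complex I factor, went from 50.4 to 40.8 CPM (-0.31, adjusted p = 0.00648), and the overlapping Srpr holds more counts than it does. Under total counts the median of the assembly factors was 0.047 with 1 lower and 1 higher.

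The partners from the mitochondrial genome had a lower median fold change with isoproterenol than the 84 nuclear genes (-0.11). Over the isoproterenol libraries, their median deviation from the control mean ran from -0.50 to -0.034 (log2), against -0.21 to -0.0027 for the 84 genes. All 13 had a fold change below 0, with a median of -0.26, and 5 fell. All 13 were also below 0 under total counts, where the median was -0.12 and 3 fell. The 4 with the smallest p were mt-Nd4 (-0.27, adjusted p = 0.00413), mt-Nd5 (-0.37, adjusted p = 0.00414), mt-Cytb (-0.27, adjusted p = 0.00571) and mt-Co2 (-0.26, adjusted p = 0.00999), which encode subunits of complexes I, I, III and IV. Selection of polyadenylated RNA bears on these levels. Nuclear and mitochondrial fold changes were not tested against each other.

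Around the chain, the electron-transfer flavoprotein Etfb (-0.28, adjusted p = 0.00126), its dehydrogenase Etfdh (-0.29, adjusted p = 0.0437, a call kept in 2 of 12 fits without 1 library) and the ubiquinone factor Coq8a (-0.27, adjusted p = 0.018) fell and Coq8b rose (0.31, adjusted p = 0.0232), among 19 genes of electron carriers with a median of -0.062. The heart ADP/ATP carrier Slc25a4 fell by 0.16 and its paralog Slc25a5 rose by 0.19, calls kept in 4 and 7 of those 12 fits. Of 12 genes of mitochondrial mass, 3 fell: citrate synthase Cs by 0.40, the chaperonin Hspd1 by 0.48 and the prohibitin Phb2 by 0.24, with a median of -0.11. Hspe1 overlaps Hspd1 and holds 31.3% as many counts. Of 15 regulators of respiratory genes, such as Ppargc1a, Esrra and Tfam, 0 passed the test (2 at an unadjusted p under 0.05) and the median was -0.15. Under total counts the medians were 0.081 for the carriers of electrons, 0.036 for mitochondrial mass and -0.0063 for the regulators.

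Markers of cell types moved with isoproterenol too. The summed level of 10 cardiomyocyte markers was 68444 to 76775 CPM in control and 58038 to 63538 CPM with isoproterenol, without overlap, and 4 of 10 fell (Myl3, Myl2, Myh6, Mybpc3). Of 9 fibroblast markers 4 rose (812 to 1163 CPM summed in control, 1186 to 1657 CPM with isoproterenol), and of 10 macrophage markers 7 rose (225 to 283 and 320 to 445 CPM). Of 7 smooth muscle and pericyte markers 3 rose (598 to 792 and 702 to 935 CPM), and of 7 endothelial markers 0 passed (548 to 717 and 660 to 770 CPM; 1 at an unadjusted p under 0.05). The 4 adipocyte markers tested summed to 0.369 to 11.9 and 0.824 to 18.7 CPM, and the 3 atrial markers to 35.7 to 315 and 23.02 to 230 CPM, with 0 passing in each list and at an unadjusted p under 0.05. No marker was at 0 in every library, and the cardiomyocyte markers were the most abundant of these lists. The part of these shifts in the falls of subunit genes was not tested. In bulk tissue, fewer cardiomyocytes and less of these RNAs in each cardiomyocyte cannot be told apart.

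Isoforms of the same subunit were compared within each library, where library scaling cancels. The mix of cell types does not cancel in such a ratio, and its part in the ratios was not tested. The log2 ratio of counts was tested by exact 2-sided permutation over libraries, in 18 tests with Benjamini-Hochberg adjustment, and 924 regroupings allow a smallest p of 0.00216. Cox6a2 exceeded Cox6a1, its form in most other tissues, by 17.6 ± 0.854 times per length in control (TPM ratio, SD, n = 6), by 14.5 ± 1.29 times with isoproterenol and by 14.5 ± 1.07 times with isoproterenol and minocycline. The log2 count ratio ran from 3.99 to 4.17 in control, from 3.58 to 3.94 with isoproterenol and from 3.69 to 3.96 with both drugs. All 6 libraries of each treated group lay below all control libraries. The difference from control was -0.28 ± 0.061 and -0.28 ± 0.052 (SE; adjusted p = 0.00974 each, exact permutation), and between the treated groups it was -0.0030 ± 0.069 (adjusted p = 0.976, exact permutation). Cox6a1 itself did not pass the test, at a median of 57.7, 59.2 and 65.9 CPM in the 3 groups.

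Ndufa4l2 and Cox4i2, both rare here, gained on their common partners with isoproterenol. Cox6b2 was not among the pairs, and fell by 1.29 against 0.21 for Cox6b1. The log2 ratio of Ndufa4l2 to Ndufa4 ran from -5.69 to -5.32 in control and from -5.24 to -4.72 with isoproterenol, without overlap, a difference of 0.58 ± 0.11 (adjusted p = 0.00974, exact permutation). With both drugs it ran from -5.49 to -4.86 and the difference from control was 0.40 ± 0.12 (adjusted p = 0.0223, exact permutation). That call ended without Control 2 (adjusted p = 0.0557), Control 3 or Control 5 (0.0501 each, exact permutation), and without libraries 4 and 6 of both drugs (0.28, adjusted p = 0.0857, exact permutation). The ratio of Cox4i2 to Cox4i1, a rare and the main form of subunit IV, was higher by 0.40 ± 0.080 with isoproterenol (adjusted p = 0.0156, exact permutation), from -7.60 to -7.21 in control and from -7.22 to -6.84 with isoproterenol. With both drugs it was 0.25 ± 0.11 above control (adjusted p = 0.0823, exact permutation), and 0.0173 without Isoproterenol and minocycline 3.

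Another pair, of which neither gene passed the test alone, differed in ratio between the treated groups. The log2 ratio of Cox7a1, the heart and muscle isoform of subunit VIIa, to Cox7a2, its form in most other tissues, ran from 0.73 to 1.07 in control, from 0.84 to 1.16 with isoproterenol and from 0.53 to 0.82 with isoproterenol and minocycline. All 6 libraries with both drugs lay below all 6 with isoproterenol, a difference of -0.35 ± 0.064 (adjusted p = 0.00974, exact permutation). Against control it was -0.24 ± 0.066 (adjusted p = 0.0223, exact permutation; 0.0501 without Control 4 and 0.0571 without libraries 4 and 6 of both drugs). Isoproterenol alone stood 0.11 ± 0.066 above control (adjusted p = 0.202, exact permutation; 0.0244 without Isoproterenol 5). Per length, Cox7a1 exceeded Cox7a2 by 2.70 ± 0.214, 2.92 ± 0.218 and 2.30 ± 0.173 times in the 3 groups. For Cox8b, the heart and muscle form of subunit VIII, against Cox8a the mean log2 ratio was 2.08, 2.03 and 1.82. The lowest of these, with both drugs, differed from control by -0.26 ± 0.092 (adjusted p = 0.0731, exact permutation; 0.0167 without Isoproterenol and minocycline 3 and 0.0487 without Control 6). The c-ring genes Atp5g1 and Atp5g3 encode one mature protein, and their ratio was flat at 0.53, 0.53 and 0.56 (adjusted p from 0.67 to 0.976 in the 3 exact permutation tests). Without the 4 libraries over 80 CPM of Myl7 every ratio named here as past the threshold kept its direction and had an adjusted p of 0.0714, or 0.129 for Ndufa4l2 with both drugs (exact permutation over 126 or 252 regroupings, which allow a smallest p of 0.00794).

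**Figure D4:**
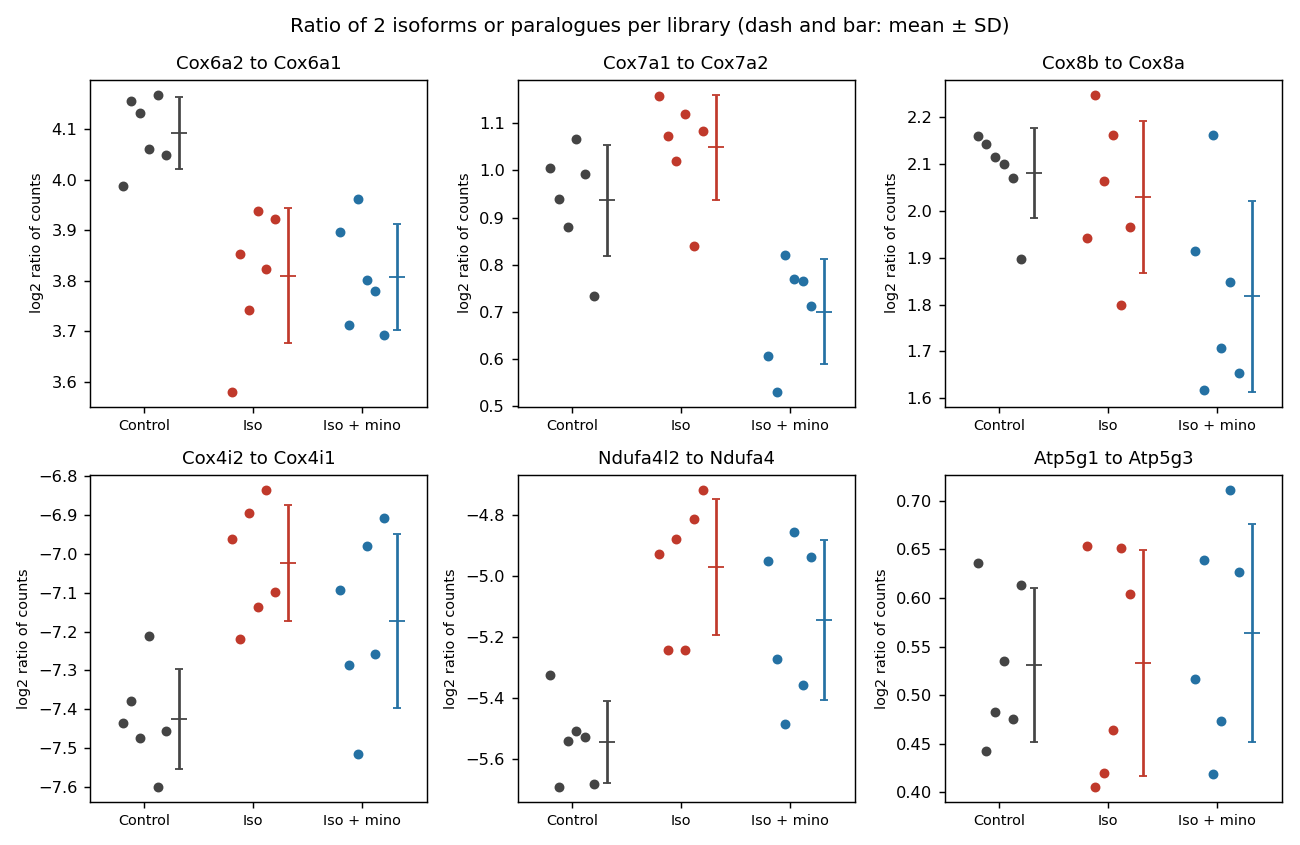
Log2 ratio of counts (plus 0.5) of 6 isoform pairs in each of the 18 libraries, with the group mean ± SD. Cox6a2 to Cox6a1 is lower in both treated groups than in control, Cox7a1 to Cox7a2 is lowest with isoproterenol and minocycline, and Atp5g1 to Atp5g3 is level.

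Minocycline added to isoproterenol was compared with isoproterenol alone. By edgeR 0 of the 84 genes fell and 0 rose, as by DESeq2, and 5 had an unadjusted p under 0.05, 1 of them lower. Over all genes 0.0452% fell and 0.00753% rose, and 7.60% had an unadjusted p under 0.05. The median log2 fold change was 0.017, with 31 of 84 below 0 (50.7% of all genes), and -0.020 under total counts, with 54 below 0. By complex it was 0.021, 0.00060, -0.025, 0.032 and 0.035 from I to V, and the values ran from -0.18 to 0.17.

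The 5 genes with the smallest p are given as values. Cox7a2 was at 136 to 156 CPM (median 140) with isoproterenol and at 148 to 170 CPM (median 159) with minocycline added, a difference of 0.17 ± 0.054 (adjusted p = 0.451). Cox7a1 went the other way, from a median of 303 to 265 CPM (-0.18 ± 0.071, adjusted p = 0.572). Cox6a2 stood between isoproterenol and control, at 826 to 973 CPM (median 918), 0.15 ± 0.056 above isoproterenol (adjusted p = 0.524). Ndufs7, an iron-sulfur subunit of the Q module, and Atp5sl differed by 0.15 and 0.16 (adjusted p = 0.593 and 0.569). Of the 51 assembly factors and the 13 mitochondrially encoded genes 0 passed (1 and 3 at an unadjusted p under 0.05).

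Isoproterenol and minocycline was then compared with the same control libraries, so that its values and those of isoproterenol alone share them. Of the 84 genes 20 fell and 1 rose, against 9.05% and 10.2% of all genes. At an unadjusted p under 0.05, 36 passed, against 33.5% of all genes. The median was -0.098 with 70 below 0 (49.3% of all genes), whereas under total counts it was 0.0039 with 38 below 0, 3 lower and 5 higher, against 4.10% and 17.5% of all genes. The difference from the median of all genes was -0.10. All libraries with both drugs lay below all control libraries for 10 genes and above for 0, against 3.59% and 3.55% of all genes. The count of falls was 11 without Control 1 or Control 4, 13 without Control 3 and 10 without Isoproterenol and minocycline 2, 16 to 19 without each other library, and 6 without the libraries over 80 CPM of Myl7, where 4.59% of all genes fell and the median was -0.096 with 69 of 84 below 0. The share of all genes called, lower or higher, was 19.3% with all libraries. It was 17.2%, 14.8% and 13.4% without Control 1, Control 3 and Control 4, and 15.6% without Isoproterenol and minocycline 2. Without Control 6 it was 14.9%, and 19 of the 84 genes fell.

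Within this group libraries 4 and 6 stood apart from the other 4, as given above. Without both of them, a fit added after the data were seen, 12 of the 84 genes fell and 0 rose, against 5.11% and 5.61% of all genes. Of the 20 falls 11 remained, and the median was -0.094 with 71 below 0. The falls were then 5 in complex I, 0 in complex II, 1 in complex III, 4 in complex IV and 2 in complex V. Sdha (-0.16), Sdhb (-0.15), Ndufs1 (-0.21), Ndufa10 (-0.14), Atp5c1 (-0.13), Cox6b1 (-0.17) and Uqcr10 (0.17) kept their direction and did not pass. Ndufa7, Ndufa12 and Ndufb5 likewise stayed below 0 and did not pass. Without only library 4 or only library 6 the falls numbered 16. The comparison with isoproterenol alone had 0 genes called without both libraries too, with a median of 0.021. The part of these libraries in the falls was not tested.

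Complex I held 10 of the 20 falls. Ndufa3 had 145 to 185 CPM (median 162), below all control libraries, and changed by -0.40 ± 0.074 (adjusted p = 0.00088), against -0.30 with isoproterenol alone. Ndufs4 changed by -0.19 against -0.21, Ndufa12 by -0.18 against -0.20 and Ndufb8 by -0.19 in both. Ndufs1 (-0.35, adjusted p = 0.00988), Ndufa10 of the membrane arm (-0.22, adjusted p = 0.0209) and Ndufv3 of the N module (-0.18, adjusted p = 0.0205) passed here and were at -0.24, -0.15 and -0.14 with isoproterenol alone. Ndufv1 ran from 400 to 454 CPM (median 412), into the control range, and did not pass. A call in one comparison and not in the other is no difference between the drugs, which the comparison of the treated groups tests.

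In complex II both catalytic subunits fell: Sdha by 0.32 ± 0.098 (adjusted p = 0.0257), with libraries from 638 to 1069 CPM, and Sdhb by 0.15 ± 0.048 (adjusted p = 0.0299), at 469 to 515 CPM below all control libraries. In complex III Uqcrc1 fell by 0.21 ± 0.049 (adjusted p = 0.00571; 687 to 801 CPM). Uqcr10 (ENSMUSG00000059534, chr11:4701973-4704342), a small subunit of complex III, rose by 0.18 ± 0.055 (adjusted p = 0.026), from 176 to 209 CPM in control to 199.7 to 225 CPM, with 0.095 for isoproterenol alone. The gene 4930481A15Rik, on another chromosome, shares a stretch of 191 bases with Uqcr10 at 95.8% identity and held 8.47% as many counts. In complex IV Cox6b2 (-1.27), Cox8b (-0.27 ± 0.072, adjusted p = 0.0127), Cox6b1 (-0.19) and Cox6a2 (-0.16 ± 0.056, adjusted p = 0.0439) fell. Cox8b went from 199.8 to 268 CPM in control to 184 to 217 CPM, and Cox6a2 kept its call in 3 of 12 fits without 1 library. In complex V Atp5c1 (-0.17), Atp5h (-0.19) and Atp5k, a membrane subunit, (-0.28 ± 0.082, adjusted p = 0.0223; median 230 to 181 CPM) fell.

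Of the 51 assembly factors 6 fell (11.8%) and 1 rose, close to or under the 9.05% and 10.2% of all genes. Their median was -0.11, and -0.0046 under total counts. The falls with the smallest p were Uqcc1 (-0.55, adjusted p = 0.000572), Foxred1 (-0.35), Sdhaf2 of complex II (-0.37) and Acad9 (-0.41). Cox16 of complex IV rose by 0.24, a call kept in 1 of 12 fits without 1 library. The gene Gm20498 overlaps Cox16 and holds 24.1% as many counts. Of the 13 mitochondrially encoded genes 5 fell (median -0.19; -0.091 under total counts, with 9 below 0). Of the electron carriers 5 of 19 fell (26.3%), led by Coq8a, Etfdh, Etfb and Coq3, and of mitochondrial mass 4 of 12 (33.3%). Of the regulators 2 of 15 fell (13.3%), Tfb2m and Tfb1m, against the same 9.05% of all genes, and Slc25a5 rose. Tiam2 overlaps Tfb1m and holds 78.3% as many counts. The cardiomyocyte markers summed to 56355 to 68673 CPM and 5 of 10 fell, while 8 of 9 fibroblast, 7 of 10 macrophage, 4 of 7 smooth muscle and pericyte and 2 of 7 endothelial markers rose (1098 to 1868, 307 to 499, 756 to 1099 and 666 to 910 CPM summed). Adipocyte markers summed to 2.47 to 31.8 CPM and atrial markers to 26.2 to 484 CPM, with 0 passing in each (1 of 4 and 0 of 3 at an unadjusted p under 0.05). Their part in these values was not tested.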

How the data were processed

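The 18 libraries of polyadenylated left ventricular RNA form 3 groups of 6. Per the labels' protocols, reads were trimmed and analysed in CLC Genomics Workbench 21.0.3, and the submitters' processing notes name edgeR without a role. Genome build, mapping settings and strandedness: not given in the sources used here. A deposited table gives counts per gene as total reads, and the deposited TPM values per gene were made by the authors. Columns were matched by the number in the description field, since titles carry other numbers, and 0 per-sample columns matched no library. The protocols speak of pooled RNA, so p-values measure the spread between libraries. Counts of library pairs of a group differed by 5.57 to 35.4 chi-square per degree of freedom.

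The test on counts was that of edgeR 4.0.16 under R 4.3.3 (filterByExpr by group, TMM, robust quasi-likelihood fit, 1 mean per group), with Benjamini-Hochberg adjustment over 13281 genes and a threshold of 0.05, 2-sided. The script was tested on simulated data. The biological coefficient of variation was 13.2%. SE is the log2 fold change divided by the square root of F. Isoform ratios use counts plus 0.5. Genes sharing sequence were sought with BLAST 2.17.0 (95% identity over 150 bases). Positions are those of the deposited table; 62 of 84 equal GENCODE M21 on GRCm38 and 84 overlap it. Overlapping genes are named where they hold at least 20% as many counts.

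The text names, per comparison, up to 6 called genes per complex with the smallest p, the highest level per length and the largest called changes, the 6 isoform pairs compared and up to 4 called genes per list. Where under 5 were called, it names the 5 with the smallest p. Members and lists were chosen with earlier results of these data known. Of 56 assembly factor symbols, 52 are in the table and 51 were tested. Alternatives were DESeq2 1.42.0, RLE scaling, no filter, a filter of 10 counts in 6 libraries, no mitochondrially encoded genes, the 12 libraries compared, no library above 80 CPM of Myl7 and each library left out. Scaling by total counts, with and without the mitochondrially encoded genes, was added after the data were seen, as was leaving out libraries 4 and 6 of both drugs together.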

Additional observations from a re-analysis of the deposited data

Results flagged for a closer look

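Among 153 groups of 6 libraries of named genes and ratios, 4 held a library far from the others by Dixon's test, which chance alone does in about 1 of 20 groups. Cox7a2 was high in Isoproterenol 3, at 156 CPM. Cox7a1 was low in Isoproterenol 5, at 246 CPM. Cox6a1 was high in Control 1, at 68.8 CPM. The log2 ratio of Cox8b to Cox8a was low in Control 6, at 1.90.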

How the results depend on the processing

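Counts of genes are given as lower or higher at an adjusted p under 0.05, and medians are log2 fold changes. No direction of a called value turned under any alternative, apart from the medians under total counts. No paired analysis was possible because the labels give no replicate numbers that groups share. Unique reads per gene were not run because the table used here has no such column.

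For isoproterenol versus control the 20 lower genes were 12 without a filter, 6 without the libraries above 80 CPM of Myl7 (fewer libraries), 1 under total counts and 3 under total counts outside the mitochondrially encoded genes, and the 0 higher genes were 1 with DESeq2, 2 in the fit of 12 libraries, 6 and 3. In complex I the 9 lower were 3 without the Myl7 libraries and 0 and 0 under the total counts, and 1 was higher under total counts. In complex II the 1 lower was 2 with DESeq2 and in the fit of 12 libraries, and 0 without a filter, without the Myl7 libraries and under both total counts. In complex III the 2 lower were 0 under the same 4 settings, with 3 and 1 higher under the total counts. In complex IV the 4 lower were 1 without the Myl7 libraries and 1 and 2 under the total counts, and the 0 higher were 1 with DESeq2, 2 in the fit of 12 libraries, 2 and 2. In complex V the 3 lower were 0 and 1 under the total counts. The 3 lower assembly factors were 5 with DESeq2 and in the fit of 12 libraries, 1 without the Myl7 libraries and 1 under total counts, with 1 higher under each total. Medians under total counts were 0.0326 for all 84 genes, 0.0239, 0.0149, 0.0757, 0.046 and 0.034 for complexes I to V and 0.0473 for assembly factors. Outside the mitochondrially encoded genes they were -0.0219, and -0.0305, -0.0393, 0.0197, -0.00742 and -0.0200 for the complexes.

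For isoproterenol and minocycline versus control the 20 lower were 6 without the Myl7 libraries, 3 and 5 under the total counts, and the 1 higher was 0, 5 and 3. In complex I the 10 lower were 6 without a filter, 2 without the Myl7 libraries, 2 and 3. In complex II the 2 lower were 1 without a filter, 0 in the fit of 12 libraries, 0 without the Myl7 libraries, 0 and 1. In complex III the 1 lower was 3 with DESeq2, 2 with RLE scaling, 2 without the mitochondrially encoded genes, 0 without the Myl7 libraries, 0 and 0, and the 1 higher was 0 without the Myl7 libraries. In complex IV the 4 lower were 1 and 1, with 3 and 1 higher, and in complex V the 3 lower were 1 without the Myl7 libraries, 0 and 0, with 1 and 1 higher. The 1 higher assembly factor was 0 without a filter and without the Myl7 libraries. Medians under total counts were 0.00389 for all, -0.0146, 0.0173, 0.0508 and 0.0184 for complexes I, III, IV and V and -0.00463 for assembly factors. Outside the mitochondrially encoded genes they were -0.0183 for all and -0.0347, -0.00158, 0.03005 and -0.00191 for complexes I, III, IV and V. Without libraries 4 and 6 of both drugs the 20 lower were 12 and the 1 higher 0, with 5 lower in complex I, 0 in complex II, 0 higher in complex III and 0 higher assembly factors. For minocycline added to isoproterenol the median of complex IV was -0.00833 under total counts.

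Without libraries 4 and 6 of both drugs the ratio of Cox7a1 to Cox7a2 was -0.256 and that of Ndufa4l2 to Ndufa4 0.278 against control, and neither passed. Without the Myl7 libraries no ratio passed: Cox6a2 to Cox6a1 was -0.276 and -0.257 against control, Cox7a1 to Cox7a2 -0.356 against isoproterenol and -0.239 against control, Cox4i2 to Cox4i1 0.312, and Ndufa4l2 to Ndufa4 0.515 and 0.398. With 4 or 5 libraries a group, the smallest p these tests allow is 0.00794.

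Leaving out each library in turn gave, for isoproterenol versus control, 9 to 21 lower and 0 to 1 higher of all genes, 4 to 9 lower in complex I, 0 to 2 in complex II, 0 to 3 in complex III, 0 to 1 higher in complex IV and 3 to 5 lower assembly factors. For both drugs versus control it gave 10 to 19 lower and 0 to 2 higher, 4 to 9 lower in complex I, 0 to 2 in complex II, 1 to 3 lower and 0 to 1 higher in complex III, 0 to 1 higher in complex IV, 1 to 3 lower in complex V and 5 to 10 lower and 0 to 1 higher assembly factors. Ratios ranged from 0.0719 to 0.154 (isoproterenol) and -0.277 to -0.202 (both drugs versus control) for Cox7a1 to Cox7a2. Cox8b to Cox8a ran from -0.281 to -0.169 against isoproterenol and -0.33 to -0.223 against control, Cox4i2 to Cox4i1 from 0.199 to 0.320 and Ndufa4l2 to Ndufa4 from 0.344 to 0.470 with both drugs versus control. The cause of these differences was not tested. Of the values of lists and ratios 1087 kept their call or size, 134 lost a call or shrank in count, 46 gained and 25 medians moved. Of those of single genes 2871 kept their side of the threshold, 352 lost and 21 gained it.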
